A study of Arabidopsis thaliana with 2 samples.

Results

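The organelle-encoded genes of Arabidopsis thaliana are the genes carried by the chloroplast genome, whose identifiers begin with ATCG, and by the mitochondrial genome, whose identifiers begin with ATMG. Taking every row of the deposited gene table with such an identifier gave 210 of 27416 genes, 88 of them chloroplast and 122 mitochondrial. Messenger RNA was profiled in whole seedlings of strain Columbia, wild type in both groups, at day 10 after germination. One group received flg22 at 1 µmol/L for 4 h, and the other was the untreated control. The flg22 peptide is a conserved stretch of bacterial flagellin that plant cells sense at their surface. RNA of 3 biological replicates was combined before sequencing, so each group is 1 library, and differences come without replicate error or p-values. Gene counts summed to 24621440 reads in the flg22 library and 21414567 reads in the control library, and 22891 and 22538 genes had at least 1 read.

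Both organelles descend from bacteria and keep small genomes for a core of their own machinery. The chloroplast genome holds subunits of the photosystems, the cytochrome b6f complex, the ATP synthase, an NADH dehydrogenase-like (NDH) complex, the large subunit of Rubisco, ribosomal proteins and a bacterial-type RNA polymerase; the mitochondrial genome holds subunits of the respiratory chain, of cytochrome c maturation and of the ribosome, and many open reading frames. Most other proteins of both organelles are encoded in the nucleus, including the sigma factors that guide the plastid polymerase and the phage-type polymerases. Organelle transcripts mostly lack the long poly(A) tails of nuclear messengers. Whether the libraries were made from polyadenylated RNA is not given in the sources used here, and what part this had in the levels below was not tested. In RNA of whole seedlings, fewer organelles and less RNA per organelle cannot be told apart.

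Chloroplast genes took the same share of reads in both libraries within counting error, while the mitochondrial share was higher with flg22. The 88 chloroplast genes summed to 3568 reads in the flg22 library and 3144 reads in the control library, which is 0.0145% and 0.0147% of all reads. The ratio of the shares, flg22 over control, was 0.987, with an exact 95% counting interval of 0.941 to 1.04. Leaving out psbA, the gene with most reads, gave 1.002, and other ways of scaling the libraries gave 1.004 and 1.02, so no direction can be read for this genome. The 122 mitochondrial genes summed to 976 reads with flg22 and 673 reads in the control, or 0.00396% and 0.00314% of all reads. Their ratio was 1.26 (1.14 to 1.39), and 1.28 (1.13 to 1.45) without ATMG00030, the mitochondrial gene with most reads. By group, the interval lay above 1 only for the 92 open reading frames and rows without a named protein, at 1.34 (1.18 to 1.52). The other mitochondrial groups with reads had fewer of them, and their intervals included 1. Each range in parentheses after a ratio is such an exact interval; the intervals cover counting error in these libraries only, not differences between plants or preparations.

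**Figure D1:**
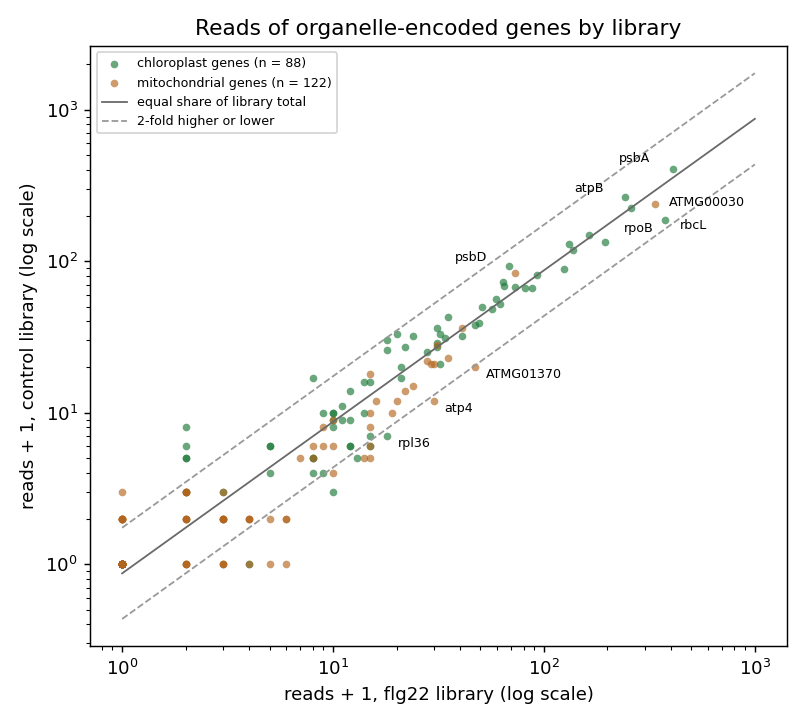
Reads + 1 of each organelle-encoded gene in the flg22 library (x axis) and the control library (y axis), both on log scales; green points are the 88 chloroplast genes and brown points the 122 mitochondrial genes. The solid line marks an equal share of the library total and the dashed lines a 2-fold difference; most genes with many reads lie near the solid line, with rbcL (375 and 187 reads) to its right.

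Few chloroplast genes passed a 2-fold limit. On the scale log2((flg22 RPKM + 1)/(control RPKM + 1)), where RPKM is reads scaled for gene length and library total, 49 chloroplast genes averaged 1 RPKM or more across the libraries. Of these, 1 was at least 2-fold higher with flg22 and 2 were at least 2-fold lower, against 11.3% higher and 8.27% lower among all 18724 genes past the same filter. The gene that was higher was rpl36 (ATCG00760), and the genes that were lower were psbL (ATCG00560) and petL (ATCG00590), all resting on 17 reads or fewer in a library. None of the 12 mitochondrial genes past the filter was 2-fold apart in either direction. The added 1 RPKM shrinks ratios more for genes at low levels. With 0.1 RPKM added, 3 mitochondrial genes were at least 2-fold higher. The median log2 ratio was -0.02 over the 49 chloroplast genes, 0.26 over the 12 mitochondrial genes and -0.03 over all genes past the filter.

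Ratios of reads, with no added constant, were counted and summarised for genes with at least 20 reads over both libraries; a few below that are given singly with their intervals. There were 46 such chloroplast genes and 18 such mitochondrial genes. A further 26 chloroplast and 49 mitochondrial genes had between 1 and 19 reads, and 16 chloroplast and 55 mitochondrial genes had no read in either library. The chloroplast ratios had a median of 0.933 with quartiles at 0.769 and 1.07, and 37 of the 46 lay within 1.5-fold of equality, against 54.5% of all genes with at least 20 reads and 52.0% of those with 20 to 1000 reads. Past 2-fold were rpl36 and psbH (ATCG00710) in the higher direction and ndhJ (ATCG00420) in the lower, where 13.8% of all 20426 genes were higher and 11.9% lower. The mitochondrial ratios had a median of 1.30 with quartiles at 1.14 and 1.48, and 14 of the 18 were above 1. Over all genes with at least 20 reads the median was 0.976, with quartiles at 0.687 and 1.40. Past 2-fold, in the higher direction, were atp4 (ATMG00640) and ATMG01370, which is 2 of 18 and near the 13.8% of all genes.

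The levels of single members were low. The 72 chloroplast genes with reads in the flg22 library had a median of 1.44 RPKM, and the 71 in the control library a median of 1.99 RPKM, against 6.67 and 6.80 RPKM over all genes with reads in these libraries. For the mitochondrial genes with reads the medians were 0.384 RPKM in the flg22 library and 0.153 RPKM in the control library, over 59 and 57 genes. Such levels rest on very few reads: ATMG00260 had 0.153 RPKM in the control library with 1 read. The mitochondrial medians also cover different sets of genes, so they give no ratio between the libraries. Per length, the order was led by ATMG00030 at 42.0 RPKM with flg22 and 34.1 RPKM in the control, then psaJ (ATCG00630) at 26.4 and 23.0 RPKM. The next were rpl32 (ATCG01020), psbM (ATCG00220) and psbA (ATCG00020), at 15.7, 15.6 and 15.6 RPKM with flg22 and 15.1, 13.9 and 17.7 RPKM in the control, so these neighbours could not be ranked apart. The order was alike in both libraries. Across genes with reads, Spearman's rho between the libraries' reads was 0.939 over 72 chloroplast genes and 0.786 over 67 mitochondrial genes, and in each genome 9 of the 10 genes with most reads were shared. Genes are not independent replicates, and these coefficients describe the 2 libraries only.

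The 15 photosystem II genes encode the water-splitting complex at the start of photosynthetic electron transport, and all had reads. They summed to 934 reads in the flg22 library and 880 reads in the control library, a ratio of 0.923 (0.841 to 1.01). psbA, which encodes the rapidly turned-over reaction centre protein D1, had 408 reads with flg22 and 402 reads in the control, and a ratio of 0.883 (0.767 to 1.02). psbD (ATCG00270), which encodes its partner D2, had 67 reads with flg22 and 92 reads in the control, a ratio of 0.633 (0.455 to 0.877). Thus psbD was lower with flg22 by more than counting error. The core antenna gene psbC (ATCG00280) had 162 reads with flg22 and 147 reads in the control, a ratio of 0.959 (0.762 to 1.21). The other core antenna gene, psbB (ATCG00680), had 124 reads with flg22 and 88 reads in the control, a ratio of 1.23 (0.925 to 1.63). psbD and psbC overlap, so reads of their shared stretch could belong to either. psbH, a small phosphoprotein gene of the same complex, had 14 reads with flg22 and 6 reads in the control, and its ratio of 2.03 (0.733 to 6.44) left the direction undetermined at this depth. psbL, the gene of another small subunit, had 1 read with flg22 and 7 reads in the control, a ratio of 0.124 (0.00276 to 0.967).

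Photosystem I, which passes electrons on to ferredoxin, was represented by 5 genes with 435 reads in the flg22 library and 327 reads in the control library, a ratio of 1.16 (1.00 to 1.34). psaB (ATCG00340) and psaA (ATCG00350) encode the paired reaction centre proteins. psaB had 193 reads with flg22 and 133 reads in the control, a ratio of 1.26 (1.01 to 1.59). psaA had 137 and 118 reads, a ratio of 1.01 (0.784 to 1.30), and these intervals overlap. The small subunit gene psaJ had 87 reads with flg22 and 66 reads in the control, a ratio of 1.15 (0.823 to 1.60). psaC (ATCG01060), the gene of the iron-sulfur subunit, had 14 reads with flg22 and 5 reads in the control, a ratio of 2.44 (0.829 to 8.64) whose interval includes 1.

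The cytochrome b6f complex links the photosystems. Its 6 genes summed to 104 reads with flg22 and 94 reads in the control, a ratio of 0.962 (0.721 to 1.29). petA (ATCG00540), the gene of cytochrome f, had 31 and 32 reads in the flg22 and control libraries and a ratio of 0.843 (0.497 to 1.43). petB (ATCG00720), the gene of cytochrome b6, had 33 reads with flg22 and 30 reads in the control, and petD (ATCG00730), the gene of subunit IV, had 20 and 19 reads; both ratios, 0.957 and 0.916, lay close to 1. The small subunit gene petL had 1 read with flg22 and 5 reads in the control, with a ratio of 0.174 (0.00368 to 1.55) whose interval includes 1.

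Summed over its 6 genes, the chloroplast ATP synthase, which makes ATP from the proton gradient, was lower with flg22. The sums were 572 reads with flg22 and 591 reads in the control, a ratio of 0.842 (0.749 to 0.946). The gene with most of them was atpB (ATCG00480), which encodes the catalytic beta subunit and had 241 reads with flg22 and 264 reads in the control, a ratio of 0.794 (0.664 to 0.949). atpA (ATCG00120), the alpha subunit gene, had 130 and 128 reads and a ratio of 0.883 (0.687 to 1.14), and atpF (ATCG00130), a stalk subunit gene, had 63 and 72 reads and a ratio of 0.761 (0.534 to 1.08). atpE (ATCG00470), the epsilon subunit gene that shares a few bases with atpB, had 56 reads with flg22 and 47 reads in the control and a ratio of 1.04 (0.691 to 1.56). Over the 6 genes the ratios ran between 0.704 and 1.10 and none was past 2-fold. The interval lay wholly below 1 for atpB alone, and the interval of the sum was not adjusted for the number of groups. A sum without atpB was not computed.

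rbcL (ATCG00490), the gene of the carbon-fixing large subunit of Rubisco, stood highest among chloroplast genes with over 50 reads. It had 375 reads with flg22 and 187 reads in the control, which is 10.6 RPKM and 6.07 RPKM. The ratio was 1.74 (1.46 to 2.09), and the log2 ratio after adding 1 RPKM was 0.71, inside the 2-fold limit. By number of reads it was the second chloroplast gene after psbA in the flg22 library and the fourth after psbA, atpB and rpoB in the control library.

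The NDH complex carries electrons around photosystem I. The 9 genes matched to it by symbol were sparsely covered. They had 71 reads in the flg22 library and 69 reads in the control library in all, a ratio of 0.895 (0.633 to 1.27). ndhJ, a gene of the arm that faces the stroma, had 7 reads with flg22 and 16 reads in the control, a ratio of 0.381 (0.132 to 0.978) that is the lowest among the 46 chloroplast genes with at least 20 reads. Of the other genes with an ndh symbol, only ndhK (ATCG00430), with 13 and 15 reads, and ndhA (ATCG01100), with 10 reads in each library, reached 20 reads over both. The 10 chloroplast rows without a symbol were not assigned to a complex and may hold further NDH genes. Of these rows, ATCG01050 had 46 reads with flg22 and 37 reads in the control, a ratio of 1.08 (0.686 to 1.71).

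Genes of the plastid's own expression machinery were near equality. The 4 genes of the bacterial-type RNA polymerase summed to 424 reads with flg22 and 383 reads in the control, a ratio of 0.963 (0.837 to 1.11). rpoB (ATCG00190), the beta subunit gene, had 259 reads with flg22 and 223 reads in the control, a ratio of 1.01 (0.841 to 1.21). rpoC1 (ATCG00180) had 80 and 66 reads and a ratio of 1.05 (0.751 to 1.48), and rpoC2 (ATCG00170) had 64 and 68 reads and a ratio of 0.819 (0.573 to 1.17). Per length these neighbouring genes stood apart, in the sequence rpoB, rpoC1 and rpoC2, with 3.27, 1.15 and 0.629 RPKM in the flg22 library and 3.24, 1.09 and 0.769 RPKM in the control library. rpoA (ATCG00740), the alpha subunit gene, had 21 reads with flg22 and 26 reads in the control.

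The 23 ribosomal protein rows summed to 443 reads in the flg22 library and 410 reads in the control library, a ratio of 0.940 (0.820 to 1.08). rpl16 (ATCG00790) had 92 and 80 reads and a ratio of 1.00 (0.733 to 1.37), rpl14 (ATCG00780) had 72 and 67 reads and a ratio of 0.935 (0.661 to 1.32), and rps3 (ATCG00800) had 50 and 49 reads and a ratio of 0.888 (0.586 to 1.34). Members of this group were found at both ends of the range. rpl36 had 17 reads with flg22 and 6 reads in the control, a ratio of 2.46 (0.927 to 7.63) with an interval that includes 1. This ratio was the highest among the 46 chloroplast genes with at least 20 reads. At the lower end, rpl22 (ATCG00810) had 17 reads with flg22 and 29 reads in the control, a ratio of 0.510 (0.263 to 0.959). rpl32 had 61 reads with flg22 and 51 reads in the control. Among the remaining chloroplast proteins, clpP (ATCG00670), a protease subunit gene, had 58 reads with flg22 and 55 reads in the control, a ratio of 0.917 (0.623 to 1.35), and the row ATCG00040, which was not matched to a symbol, had 17 and 25 reads, a ratio of 0.591 (0.300 to 1.14).

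Among the chloroplast genes described above with at least 20 reads, the counting interval lay wholly above 1 for rbcL and psaB, and wholly below 1 for psbD, atpB, rpl22 and ndhJ. Each interval was set at 95% for its gene alone, with no adjustment for the number of genes looked at. The share of all genes with an interval wholly above or below 1 was not computed, so these calls have no background beside them. By size, 19 of the 46 ratios were above 1 and 27 below.

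**Figure D2:**
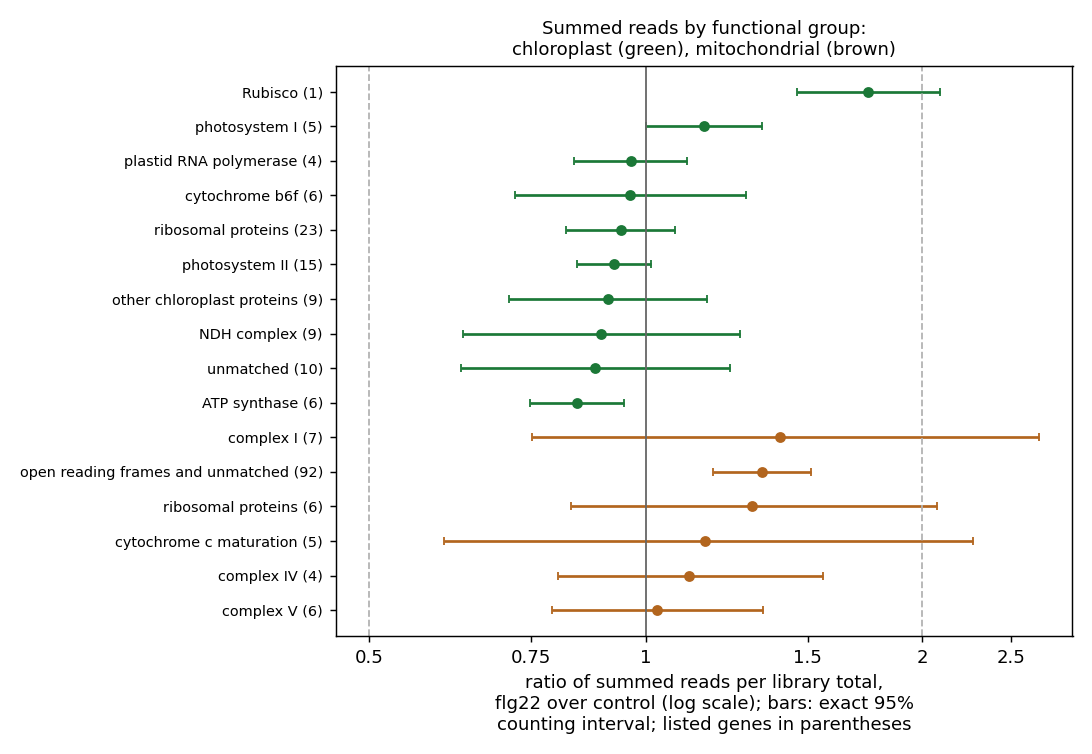
Ratio of summed reads per library total, flg22 over control (x axis, log scale), for each functional group of chloroplast (green) and mitochondrial (brown) genes; points are the ratios and bars their exact 95% counting intervals. Rubisco (rbcL alone, 1.74) and the mitochondrial open reading frames and unmatched rows (1.34) have intervals above 1. The chloroplast ATP synthase (0.842) has an interval below 1, and that of photosystem I reaches down to 1.00.

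**Figure D3:**
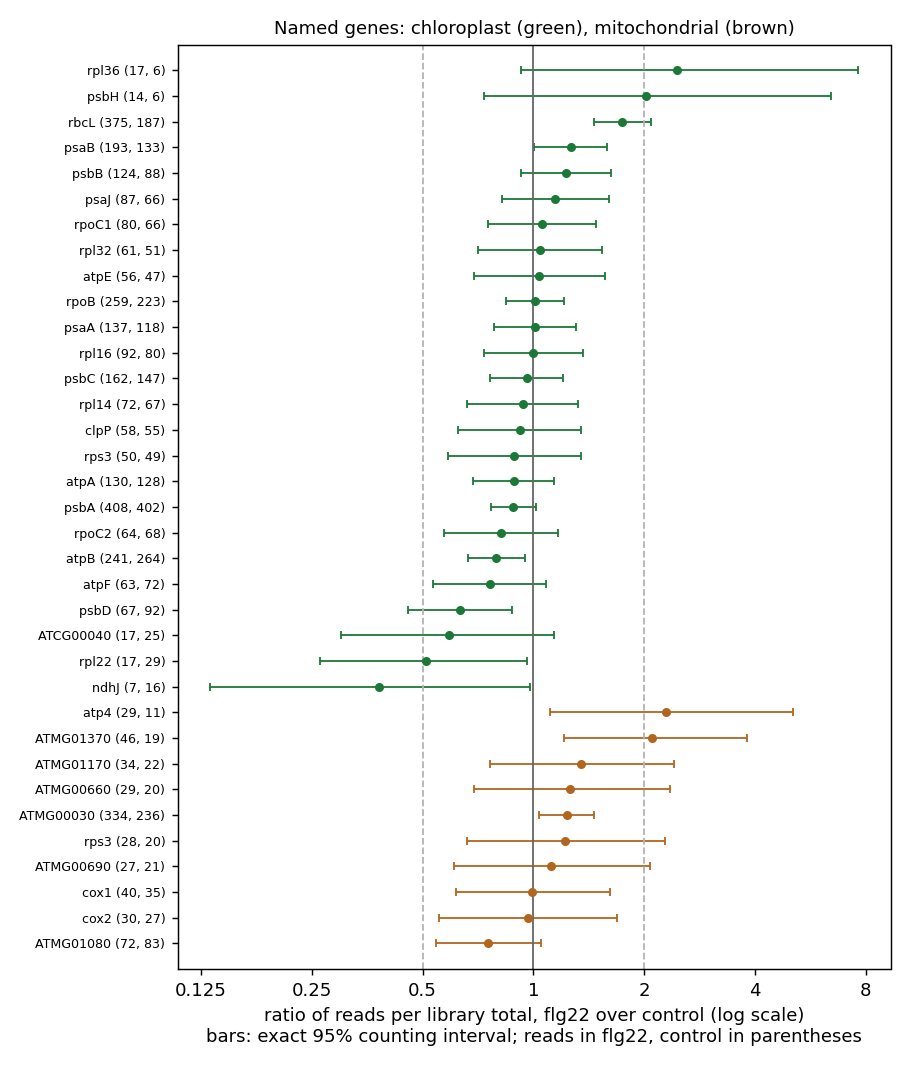
Ratio of reads per library total, flg22 over control (x axis, log scale), for organelle-encoded genes chosen by read number or by rank of ratio, with exact 95% counting intervals as bars and reads (flg22, control) in parentheses. Chloroplast genes are green and mitochondrial genes brown; bars narrow with more reads, from rpl36 (17 and 6 reads) to psbA (408 and 402 reads).

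Genes whose sequence occurs at several places had few reads or none. Part of the chloroplast genome is held in an inverted repeat, so that genes within it occur at both repeats. All 8 identifiers whose gene stands at 2 places in the RefSeq chloroplast genome, a pair each for rpl2, rpl23, ycf2 and rps7, were listed at 0 reads in both libraries. Of the 70 identifiers with 1 place, 2 were listed at 0. One of them was the short ycf1 row ATCG01000, in which 0.2% of its 50-base windows occurred once in the whole RefSeq genome. The long ycf1 row ATCG01130, with 81.5% of its windows found once, had 30 reads with flg22 and 26 reads in the control. The other was rps16 (ATCG00050), whose windows were all found once; 0 reads allows up to 0.122 CPM, counts scaled to equal library totals, in the flg22 library and 0.140 CPM in the control library, taking 3 reads as the limit. A further 6 of the 10 chloroplast identifiers without a symbol were also listed at 0.

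In the mitochondrial genes that could be placed, the low-uniqueness genes had few reads but were not all at 0. In 12 of the 19 with a symbol, at most 8.3% of windows occurred once, and these summed to 13 reads with flg22 and 12 reads in the control. Of the 12, 6 were listed at 0 in both libraries and the other 6 had reads, led by nad7 (ATMG00510), a complex I gene, with 9 reads with flg22 and 5 reads in the control. In the other 7, at least 65.4% of windows occurred once, none was at 0, and they summed to 186 reads with flg22 and 131 reads in the control. The grouping by windows was made after the read numbers were seen, and no source used here gives the read length or the authors' treatment of reads that fit several places, so their part in the zeros was not tested. A 0 for a repeated gene is thus not read as absence of its transcript. The mitochondrial window shares are limited further, as the mitochondrial sequence of the RefSeq genome differs from that of the authors' build.

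**Figure D4:**
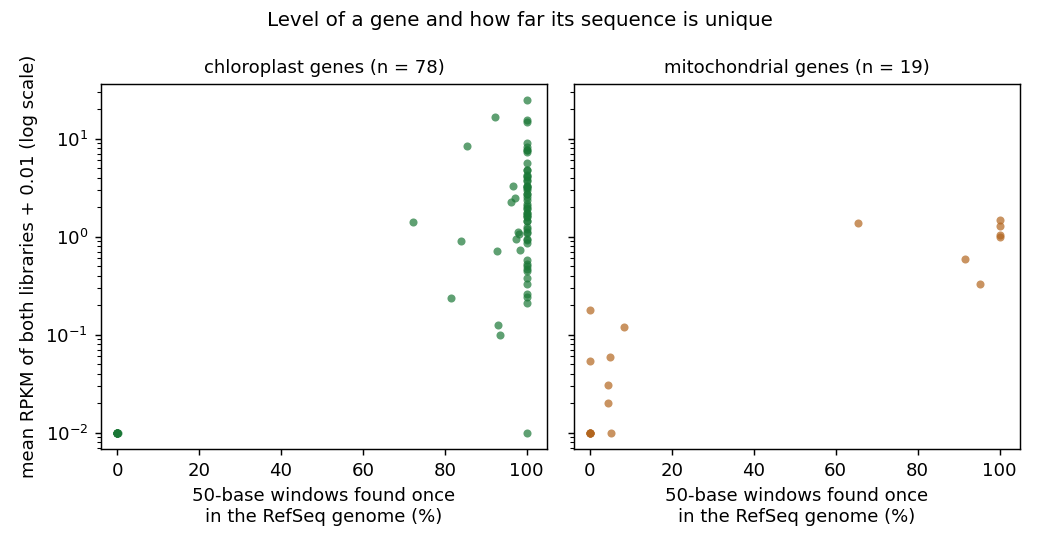
Mean RPKM of both libraries + 0.01 (y axis, log scale) against the percent of a gene's 50-base windows found once in the RefSeq genome (x axis), for 78 chloroplast genes (left) and 19 mitochondrial genes (right) with a symbol. Points at the bottom are genes listed at 0 reads; all 9 chloroplast genes with at most 10% of windows found once lie there, together with rps16 at 100%.

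In the mitochondria, ATMG00030 alone held 34.2% of the mitochondrial reads in the flg22 library and 35.1% in the control library. It had 334 reads with flg22 and 236 reads in the control, a ratio of 1.23 (1.04 to 1.46), and the annotation used here gives it no name. The 92 open reading frames and rows without a named protein, to which it belongs, summed to 657 reads with flg22 and 427 reads in the control, a ratio of 1.34 (1.18 to 1.52). Of these, 45 were listed at 0 in both libraries. ATMG01370, likewise without a name, had 46 reads with flg22 and 19 reads in the control, a ratio of 2.11 (1.21 to 3.81). ATMG01170, ATMG00660 and ATMG00690 had 34, 29 and 27 reads with flg22 and 22, 20 and 21 reads in the control, and the intervals of their ratios, which lay between 1.12 and 1.34, all included 1.

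Among the respiratory complexes no summed ratio stood apart from 1 by more than counting error. Complex V, the mitochondrial ATP synthase, had 129 reads with flg22 and 109 reads in the control over 6 genes, a ratio of 1.03 (0.792 to 1.34). Its members went both ways by value. atp4, the gene of a stalk subunit, had 29 reads with flg22 and 11 reads in the control. Its ratio of 2.29 (1.11 to 5.09) was the highest among the 18 mitochondrial genes with at least 20 reads. ATMG01080, which the RefSeq notes give as subunit 9 of the F0 part, had 72 reads with flg22 and 83 reads in the control, a ratio of 0.754 (0.542 to 1.05).

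Complex IV, the terminal oxidase, summed to 86 reads with flg22 and 67 reads in the control over 4 genes, a ratio of 1.12 (0.802 to 1.56). cox1 (ATMG01360), the gene of its catalytic subunit, had 40 and 35 reads and a ratio of 0.994 (0.616 to 1.61), and cox2 (ATMG00160), the gene of the subunit that receives electrons from cytochrome c, had 30 and 27 reads and a ratio of 0.966 (0.555 to 1.69). Complex I, the entry point for NADH electrons, had 29 reads with flg22 and 18 reads in the control over the 7 genes placed in it by symbol or note. That is a ratio of 1.40 (0.752 to 2.68). Rows without a name were not assigned to a complex and may hold further subunit genes. Both rows of complex III, cob (ATMG00220) and ATMG00590, were listed at 0 reads. The 5 cytochrome c maturation genes had 24 reads with flg22 and 18 reads in the control, of which ccmB (ATMG00110), a transporter subunit gene, held 23 and 14.

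The 6 mitochondrial ribosomal protein genes summed to 51 reads with flg22 and 34 reads in the control, a ratio of 1.31 (0.829 to 2.08). Most were from rps3 (ATMG00090), with 28 and 20 reads, and rpl16 (ATMG00080), with 21 and 13 reads. For 13 of the 18 mitochondrial genes with at least 20 reads the ratio was within 1.5-fold. The interval lay wholly above 1 for ATMG00030, ATMG01370 and atp4 and wholly below 1 for none, again without a share over all genes.

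Chromosome 2 of the nucleus carries an inserted copy of most of the mitochondrial genome, and the RefSeq notes name a mitochondrial protein as the closest match of 45 nuclear genes among the 67 between AT2G07600 and AT2G07840. These 45 nuclear genes summed to 265 reads with flg22 and 189 reads in the control, a ratio of 1.22 (1.01 to 1.48). Adding them to the 122 mitochondrial genes gave a ratio of 1.25 (1.15 to 1.37), close to that of the mitochondrial genes alone. Of the 45 pairs, the nuclear gene had more reads in 22, the mitochondrial gene in 12, and both were equal in 11. Most of the equal pairs had 0 reads for both genes. These are reads not scaled for length, and the genes of a pair can differ in listed length. The counts of pairs are thus no comparison of level. Examples lie on both sides. The nuclear gene AT2G07698 had 27 reads with flg22 and 35 reads in the control, whereas its partner atp1 (ATMG01190), the alpha subunit gene of the ATP synthase, had 1 and 2 reads. AT2G07715 had 72 reads with flg22 and 57 reads in the control, and its partner ATMG00560 had 7 and 5 reads. AT2G07671 had 27 reads with flg22 and 22 reads in the control, fewer than its partner ATMG01080. AT2G07708 and AT2G07739, with 17 and 10 reads with flg22 and 13 and 10 reads in the control, had partners at 0, while AT2G07680, AT2G07690 and AT2G07787, with 409, 887 and 13 reads with flg22 and 544, 775 and 16 reads in the control, had no partner. Reads shared by a nuclear copy and its mitochondrial original cannot be told apart in these counts, so the division within a pair is uncertain. Of the 45 mitochondrial identifiers named in such notes, 25 were listed at 0 in both libraries and 2 had at least 20 reads, against 30 at 0 and 16 with at least 20 reads among the 77 others.

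Many nuclear genes that transcribe and process organelle RNA were lower with flg22. Of 33 nuclear genes listed for these roles or as partners of rbcL, all past the filter of 1 RPKM, 10 were at least 2-fold lower and none was 2-fold higher, against the 8.27% and 11.3% of all genes, and their median log2 ratio was -0.67. Without the Rubisco small subunits, 7 of 29 were at least 2-fold lower. The lists were chosen with earlier results of these data known, so the share of all genes is no independent test of them. The 6 sigma factor genes had a median of -0.96, and 3 passed 2-fold. SIG4 (AT5G13730) had 123 reads with flg22 and 903 reads in the control, 8.44-fold lower (6.98 to 10.3). SIG1 (AT1G64860) had 539 and 1538 reads, 3.28-fold lower (2.97 to 3.63), and SIG2 (AT1G08540) had 866 and 1711 reads, 2.27-fold lower (2.09 to 2.47). The 12 genes of proteins bound to the plastid polymerase had a median of -0.63, and 1 passed 2-fold, PAP1 (AT3G04260), with 1092 reads with flg22 and 2240 reads in the control, 2.36-fold lower (2.19 to 2.54). PAP12 (AT5G24314) had 611 and 986 reads, 1.86-fold lower (1.68 to 2.06), and PAP7 (AT4G20130) had 750 and 1141 reads, 1.75-fold lower (1.59 to 1.92).

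The phage-type polymerases are a nuclear family of single-subunit enzymes. RPOTM (AT1G68990), which serves the mitochondria, had 1879 reads with flg22 and 907 reads in the control, a ratio of 1.80 (1.66 to 1.95). RPOTMP (AT5G15700), directed to both organelles, had 1148 and 706 reads, a ratio of 1.41 (1.29 to 1.56), and RPOTP (AT2G24120), the plastid enzyme, had 2200 and 1462 reads, a ratio of 1.31 (1.22 to 1.40). All 3 lay within 2-fold, with a median log2 ratio of 0.43.

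Genes of chloroplast and mitochondrial RNA decay and processing had a median of -0.69 over 8 genes, 3 of them at least 2-fold lower. The endonuclease gene CSP41A (AT3G63140) had 1846 reads with flg22 and 5054 reads in the control, 3.15-fold lower (2.98 to 3.32), and its relative CSP41B (AT1G09340) had 2325 and 5536 reads, 2.74-fold lower (2.61 to 2.87). RNE (AT2G04270), the gene of an RNase E-like nuclease, had 524 and 1088 reads, 2.39-fold lower (2.15 to 2.65). MTPNP (AT5G14580), the gene of the mitochondrial polynucleotide phosphorylase and picked after its value was seen, was higher, with 833 reads with flg22 and 482 reads in the control, a ratio of 1.503 (1.34 to 1.69).

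The nuclear partners of rbcL went the other way from it by value. The 4 small subunit genes, RBCS1A, RBCS1B, RBCS2B and RBCS3B, summed to 58331 reads with flg22 and 122177 reads in the control, a ratio of 0.415 (0.411 to 0.419), against 1.74 for rbcL. RBCS2B (AT5G38420), RBCS3B (AT5G38410) and RBCS1A (AT1G67090) were 3.79-fold, 2.72-fold and 2.20-fold lower. The small subunit genes are near copies of each other, and how their reads were split is uncertain. The sum does not depend on that split. Reads that fit several of these genes may have been left out of the sum, which was not tested. Together the small subunit genes had 0.237% of all reads with flg22 and 0.570% in the control, far above rbcL at 0.00152% and 0.000873%. Whether chloroplast and nuclear transcripts were captured alike is not known, so these shares do not compare the levels of the transcripts.

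**Figure D5:**
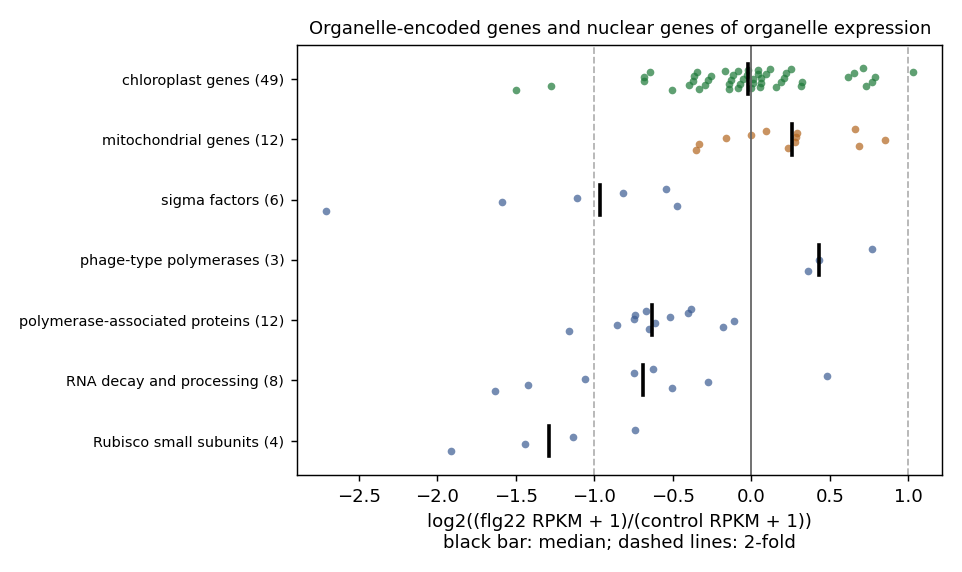
Log2((flg22 RPKM + 1)/(control RPKM + 1)) of each gene (x axis) for the 49 chloroplast and 12 mitochondrial genes averaging 1 RPKM or more and for 5 lists of nuclear genes; black bars are medians and dashed lines mark 2-fold. The chloroplast genes centre at -0.02 and the mitochondrial genes at 0.26, while sigma factors centre at -0.96, phage-type polymerases at 0.43 and Rubisco small subunits at -1.29.

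The authors' deposited table, which sets the same 2 libraries against each other, lists a false discovery rate for 139 of the 210 organelle genes and no value for the other 71. None of the 139 was below 0.05 in the authors' deposited table, where the lowest rate of an organelle gene was 1. The share of all genes below 0.05 was not counted, so this does not set the organelle genes apart from others. For rbcL the authors' deposited table gives a log2 fold change of 0.84, for psbA -0.14 and for ATMG00030 0.34.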

How the data were processed

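The flg22 and control libraries were grouped by the treatment label. The authors deposited whole-number read counts and RPKM per gene, a listed gene length, and a log2 fold change with an FDR (an adjusted p-value) comparing the libraries, per the file headers. Bowtie, TopHat, DESeq and the build TAIR10 are named in the submitters' processing notes, without versions or roles; no source used here gives the counting rule or strand.

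Counts were divided by column totals. Shares have exact (Clopper-Pearson) and ratios exact conditional binomial 95% intervals (scipy 1.17.1); genes past 2-fold were counted by size. TMM (edgeR 4.0.16) and DESeq2 1.42.0 size factors, other constants, filters and fold limits were alternatives. The steps were tested on simulated data.

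The table pairs no symbols with organelle identifiers. Chloroplast symbols came from matching listed lengths to RefSeq gene spans (TAIR10.1), 69 by length and 9 by length and flanking genes, with 10 unmatched; mitochondrial names came from RefSeq notes or length, 35 of 122. Matched lengths were whole spans, so RPKM of genes with introns is per spanned base. The mitochondrial sequence of TAIR10.1 differs from that of the authors' build TAIR10, so mitochondrial matches by length and window shares are uncertain. No coordinates or sequences are given, promoter motifs were not searched, and nuclear copies were paired through RefSeq notes in place of protein identity.

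Members and lists were chosen with earlier results of these data known. The naming rule took members with 50 reads in a library, the 5 highest and 5 lowest ratios, the 10 with most reads per genome, 3 genes per nuclear list, and nuclear copies with 20 reads. Other organelle genes named were picked after their values were seen. A gene that this rule takes is not reported here.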

Additional observations from a re-analysis of the deposited data

How the results depend on the processing

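Scaling by TMM factors or DESeq2 size factors raised every ratio by 1.71% or 2.95%, and all 32 recomputed sums of functional groups stayed within their counting intervals. The chloroplast ratio of 0.987 crossed 1, to 1.004 and 1.02 under these scalings and 1.002 without psbA. Of the values recomputed for the main comparisons, 65 stayed within their counting interval or, for counts of genes, within 1.5 times the count reported, and 16 counts of genes past a fold limit moved further. For chloroplast genes higher with flg22, 1 in the report, the count was 3 with 0.1 RPKM added, 0 with 5 RPKM added, 2 without a filter, 0 with a mean of at least 5 RPKM, 2 by reads and 7 at a 1.5-fold limit. For those lower, 2 in the report, it was 0 with 5 RPKM added, 0 with a mean of at least 5 RPKM, 1 by reads and 5 at 1.5-fold. For mitochondrial genes higher, 0 in the report, it was 3 with 0.1 RPKM added, 2 by reads and 3 at 1.5-fold. Over all genes the counts were 1392 higher and 830 lower with 5 RPKM added, and 2422 lower by reads. With 5 RPKM added the log2 ratio of rbcL (ATCG00490) was 0.49. Each move follows from the constant, filter or limit changed.

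No paired analysis was possible because each group is 1 pooled library, and leaving 1 out would leave its group empty. Rows were matched to protein-coding RefSeq genes only, so rRNA and tRNA genes could not be recognised among the unmatched rows. A version with protein-coding genes alone was thus not run. Depth limits most members: 26 chloroplast and 49 mitochondrial genes with reads had under 20 over both libraries, and no ratio was read for them unless stated with its interval.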
